A study of Mus musculus with 10 samples.

Results

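The transcripts described here encode the enzymes that make and remove sphingosine-1-phosphate and the protein that exports it. They were chosen by name, with earlier results of these data known. The list holds the sphingosine kinases Sphk1 and Sphk2, the sphingosine-1-phosphate phosphatases Sgpp1 and Sgpp2, the lipid phosphate phosphatases Plpp1, Plpp2 and Plpp3 (older symbols Ppap2a, Ppap2c and Ppap2b), the lyase Sgpl1 and the transporter Spns2. These are 9 of the 18193 genes measured, and they were read by 18 probe sets, groups of short probes against a transcript, each annotated to 1 of these genes alone. Transcripts were measured on 1-colour Affymetrix mouse arrays (Mouse430_2 in the labels) in keratinocytes, the main epithelial cell of the epidermis, taken into culture from mouse skin. The WT group was labelled Sgpp1+/+ and the KO group Sgpp1-/-, with 5 arrays each, numbered 1 to 5 for WT and 8, 9, 10, 21 and 23 for KO. Both groups were cultured with 8% fetal calf serum at 0.05 mM calcium for 3 to 4 days, and calcium this low is the usual way to hold mouse keratinocytes in a basal, dividing state. The labels give neither the strain, the age of the mice nor the part of Sgpp1 that was disrupted. They also do not say that each sample of a group came from a separate animal. The p-values therefore set the group difference against the spread between these samples.

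Sphingosine-1-phosphate is a signalling lipid made when a sphingosine kinase adds a phosphate to sphingosine. Phosphatases return it to sphingosine, which ceramide synthases can use again, whereas the lyase breaks it down for good and so ends the sphingolipid pathway. Cells release it through transporters, after which it can act on receptors at the cell surface. In the epidermis the same sphingosine backbone is the raw material of the ceramides that seal the cornified layer.

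Array medians lay between 5.02 and 5.17 on the log2 scale of the deposited values. Across probe sets, WT 1 correlated least with its companions (mean r 0.955, the remaining 9 being at 0.967 or above). Where the brightest set of a member read lowest in WT on WT 1, the difference is also given without that array. Y-linked transcripts were present on 2 WT and 2 KO arrays, so the samples of a group did not all come from the same animal. The 9 probe sets of Kdm5d, Uty and Eif2s3y read 1.58 to 3.84 on the 6 arrays without these transcripts. This range is used below as a guide to readings with no target present, although it comes from these 9 sets only. The keratinocyte label was borne out by its markers: Krt5, a basal keratin, read 12.78 ± 0.06 in WT and 12.73 ± 0.10 in KO (mean log2 signal ± SD, n = 5 each, as in all values below). Of 8 differentiated keratinocyte markers, 8 were called higher in KO (limma adjusted p under 0.05), beside 2.30% of all genes. The mean of this list ran from 8.65 to 9.49 on the WT arrays and from 10.58 to 11.09 on the KO arrays. Markers of other skin cells were also present in both groups. The fibroblast list mean ran from 6.12 to 9.26 in WT and from 6.19 to 8.12 in KO, and its brightest gene, Vim, read 11.02 ± 1.55 and 10.78 ± 0.98. Vim did not always follow that list: on WT 5 it read 11.18, where the list mean was 6.41. The melanocyte list mean ran from 6.87 to 10.13 in WT and from 8.38 to 10.06 in KO, with Tyrp1 at 9.53 ± 1.65 and 10.43 ± 0.78. The myeloid list mean ran from 4.93 to 6.26 and from 4.74 to 6.18, with Lyz2 at 9.21 ± 0.82 and 8.63 ± 1.14. Endothelial, T cell and mast cell lists had WT means of 3.84, 4.12 and 3.59 and KO means of 3.58, 4.29 and 3.75, with Pecam1, Thy1 and Kit as their brightest genes; Thy1 is also made by fibroblasts and Kit by melanocytes. Among markers chosen after their values were seen, Cd3e and Cd3g of T cells had group means of 2.27 to 2.87, within the range of the Y-linked sets without target. Ptprc and Cd207 of leukocytes and Langerhans cells, at 2.98 to 3.29, were within it too. So was Lum of the fibroblast list, at 2.66 in WT and 2.54 in KO, whereas the other fibroblast genes had group means above it. The other measured myeloid genes beside Lyz2 had group means above that range: Tyrobp 7.06 in WT and 6.85 in KO, Csf1r 5.07 and 4.85, and Cd74 4.77 and 4.49. The mast cell proteases were mixed: Cpa3 and Mcpt4 had group means of 2.39 to 3.07, whereas Cma1 read 4.42 in WT and 4.51 in KO, above that range. Of the 7, 6, 6, 5, 3 and 4 measured genes of these 6 lists, 0 were called in limma, and 1 of them, Emcn, had an unadjusted p below the threshold (0.0321). Of all genes, 2.65% were called and 13.0% had an unadjusted limma p under 0.05. In whole cultures, fewer cells of a type and less RNA per cell cannot be told apart.

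Stretches before annotated transcription starts are shown for the genes whose brightest probe sets differed most, Spns2, Sgpp1 and Sphk1. Each is the 250 bases upstream of a RefSeq start in GRCm38.p6, printed 5′ to 3′ on the gene's strand, and capitals mark matches to 6 short motifs on either strand: the GC box GGGCGG, the CACCC box CACCC, the AP-1 site TGANTCA, the E-box CANNTG, the CCAAT box CCAAT and the TATA box TATAAA. Sgpp1 lies on the minus strand at chr12:75735730-75735979, Spns2 on the minus strand at chr11:72475028-72475277, and the Sphk1 window is the most upstream of 5 for that gene, on the plus strand at chr11:116530850-116531099.
Sgpp1: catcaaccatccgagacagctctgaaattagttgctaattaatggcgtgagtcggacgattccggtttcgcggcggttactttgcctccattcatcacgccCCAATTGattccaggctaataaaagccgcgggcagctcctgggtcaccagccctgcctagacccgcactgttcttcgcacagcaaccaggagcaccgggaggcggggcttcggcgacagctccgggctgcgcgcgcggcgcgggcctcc
Spns2: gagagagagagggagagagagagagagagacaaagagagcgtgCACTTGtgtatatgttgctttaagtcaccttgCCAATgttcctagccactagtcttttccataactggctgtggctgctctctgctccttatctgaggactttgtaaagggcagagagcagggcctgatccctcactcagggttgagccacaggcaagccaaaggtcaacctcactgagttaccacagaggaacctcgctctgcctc
Sphk1: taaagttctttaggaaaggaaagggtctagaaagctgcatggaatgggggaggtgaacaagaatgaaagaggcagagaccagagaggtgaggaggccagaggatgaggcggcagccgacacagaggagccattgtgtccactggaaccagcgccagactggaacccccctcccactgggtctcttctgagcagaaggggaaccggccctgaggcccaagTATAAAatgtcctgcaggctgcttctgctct

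The Sgpp1 window was 61.2% G and C with 24 CpG dinucleotides, and the Spns2 window was 51.6% with 2, against medians of 52.4% and 6 over 32851 windows of the same length. In the Sgpp1 window a CCAAT box overlaps an E-box. The Spns2 window held 1 E-box and 1 CCAAT box, and the Sphk1 window 1 TATA box. That Sphk1 window had 4 CpG dinucleotides and 0 CACCC boxes, whereas the other Sphk1 windows had 12 to 19 and 3 or 4. Which Sphk1 start these cells use was not analysed. An E-box was found in 66.2% of all windows, a CCAAT box in 33.8%, a CACCC box in 52.0%, a GC box in 32.7%, a TATA box in 12.4% and an AP-1 site in 6.75%. Among the 13 windows of the 8 members found in the RefSeq table, an AP-1 match occurred in 2, both of them overlapping windows of Sphk1. These matches describe letters, not bound sites. Plpp1 was matched to no window.

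The design asks, for these genes, how KO cultures compare with WT cultures. In limma with Benjamini-Hochberg adjustment over all genes, 0 of the 9 were called higher and 0 lower in KO. Of all genes, 2.65% were called, 2.30% higher and 0.346% lower. At an unadjusted p under 0.05 there were 4, all higher in KO (Sphk1, Sphk2, Sgpp1 and Spns2), against 13.0% of all genes in either direction and 7.33% higher. The groups were apart, with no overlap, in 2 of the 9, Sgpp1 and Sphk1, both higher in KO, against 4.38% of all genes in either direction and 3.36% higher. By probe set, 0 of 18 were called (1.27% of all probe sets), 6 had an unadjusted p under 0.05 (10.1% of all) and 4 did not overlap, all higher (3.14% of all in either direction, 2.28% higher). The 3 sets of Sgpp1 are in both the 6 and the 4, so these counts are not of separate genes. The median difference of the 9 was 0.57 on the log2 scale, beside -0.01 over all genes, with 6 above and 3 below 0.

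**Figure D1:**
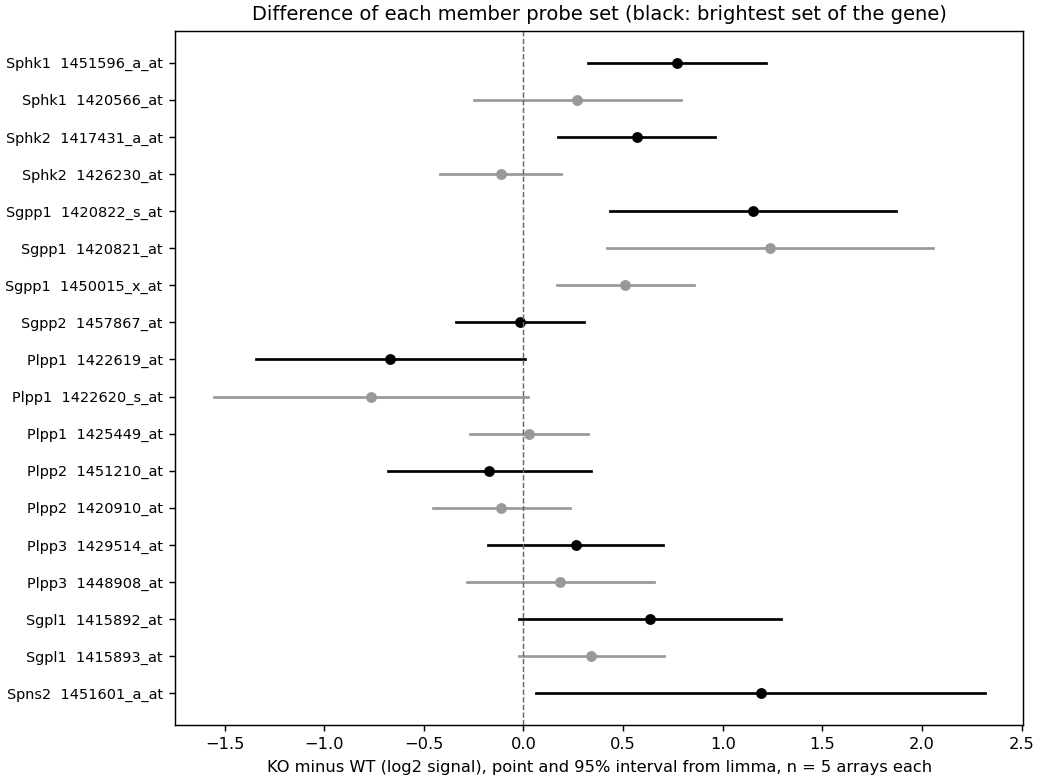
KO minus WT on the log2 scale (x axis) for each of the 18 probe sets (y axis, named by gene and probe set), as points with 95% intervals from the limma fit over all probe sets, 5 arrays per group. Black marks the brightest set of a gene and grey its other sets; the intervals of all 3 Sgpp1 sets lie above 0, whereas Sphk1 and Sphk2 each have 1 set whose interval lies above 0 and 1 whose interval includes 0.

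The kinases make the lipid. Sphk1, the sphingosine kinase that is mostly cytoplasmic and induced by growth signals, read 4.34, 4.18, 5.06, 5.29 and 4.81 on WT 1 to WT 5 and 5.61, 5.46, 5.67, 5.36 and 5.44 on KO 8, 9, 10, 21 and 23 (log2 signal of 1451596_a_at). Each KO array lay above each WT array, with little room between WT 4 and KO 21. The group means were 4.74 ± 0.47 and 5.51 ± 0.13, a difference of 0.77 (SE 0.20, 95% interval 0.33 to 1.21), or 1.71-fold, with a limma adjusted p of 0.0725. Without WT 4, the highest WT array, it was 0.91 (limma adjusted p = 0.0346), which passes 0.05, and without WT 1, WT 2 and KO 8 together it was 0.43 (limma adjusted p = 0.222). Over the 20 alternatives its adjusted p ran from 0.0346 to 0.956. A second, dimmer Sphk1 probe set (1420566_at) read 4.47 ± 0.46 and 4.75 ± 0.38 and overlapped widely, with WT 1 at 5.22 and KO 9 at 4.37. Its interval, -0.25 to 0.79, includes 0, so the gap between the groups rests on 1 of the 2 sets.

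Sphk2, the kinase found in nucleus and mitochondria as well as the cytoplasm, read 6.92, 7.73, 7.24, 7.24 and 7.44 on WT 1 to WT 5 and 8.10, 7.85, 8.09, 7.43 and 7.94 on KO 8, 9, 10, 21 and 23 (1417431_a_at). The groups overlapped through WT 2, which was high for its group, and KO 21, which was low. The means were 7.32 ± 0.30 and 7.88 ± 0.27, a difference of 0.57 (SE 0.18, 95% interval 0.18 to 0.95), or 1.48-fold, with a limma adjusted p of 0.148. Without WT 1 it was 0.47 (limma adjusted p = 0.217). With arrays weighted by their quality it passed, at 0.58 with an adjusted p of 0.0268, and the range over its 20 alternatives was 0.0268 to 0.942. Its other set, 1426230_at, read 6.19 ± 0.24 in WT and 6.07 ± 0.07 in KO, with the sign turned and an interval of -0.42 to 0.19. For both kinases, then, the set with the suffix _a_at, which marks probes shared by transcripts of 1 gene, gave the larger difference. Which transcripts each set reads was not analysed here.

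Sgpp1, the targeted gene, encodes the endoplasmic reticulum phosphatase that returns sphingosine-1-phosphate to sphingosine. Its brightest probe set (1420822_s_at) read 6.25, 7.82, 8.24, 8.33 and 7.70 on WT 1 to WT 5 and 8.46, 9.01, 8.69, 8.92 and 9.03 on KO 8, 9, 10, 21 and 23. A set of similar readings (1420821_at) gave 6.03, 8.06, 8.28, 8.31 and 7.07 against 8.50, 9.02, 8.79, 8.76 and 8.87. The dimmest (1450015_x_at, a suffix for probes that may read other transcripts) gave 4.38, 4.27, 4.28, 4.31 and 3.76 against 4.46, 5.005, 4.77, 4.72 and 4.60. On WT 5 it read below 3.84, the highest Y-linked reading without target. Which transcripts each of the 3 sets reads was not analysed here. On all 3 sets the lowest KO array, KO 8 each time, read above the highest WT array, so no probe set of the targeted gene read lower in KO. The exact permutation p was 0.00794 for each set (two-sided), the smallest that 252 assignments of the arrays can give. A probe set that lies outside the disrupted part checks nothing about the label, and where these sets lie relative to it is unknown, so every direction here rests on the labels alone.

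The difference of the brightest Sgpp1 set was 1.15 (SE 0.33, 95% interval 0.44 to 1.86), or 2.22-fold, with a limma adjusted p of 0.102, and 1.38% of all genes differed upward by at least as much. WT 1 read far below the other WT arrays on the 2 brighter sets but was the highest WT array on the dimmest. Without WT 1 the difference of the brightest set was 0.80 (limma adjusted p = 0.0356), which passes 0.05 over all genes. In the fit over all probe sets, which has its own estimate of the spread and its own adjustment, the limma adjusted p without WT 1 was 0.0641. In that fit the set 1420821_at differed by 1.24, and by 0.86 without WT 1 (limma adjusted p = 0.159). Over the 20 alternatives the adjusted p of Sgpp1 ran from 0.0356 to 0.901. The WT SD of 0.84 rested on WT 1, without which it was 0.31, beside 0.24 in KO.

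The 3 genes whose 10-array profile was nearest to that of Sgpp1 were Cd164, Btg1 and Cpe, out of 16319 candidates. They encode a sialomucin, an antiproliferative protein and carboxypeptidase E. Their root mean square distances after centring each profile on its own mean were 0.21, 0.22 and 0.26 log2 units, and the second Sgpp1 set lay at 0.23. WT 1 was low in all of them, at 6.83 for Cd164, 8.20 for Btg1 and 8.49 for Cpe against WT means of 8.37, 9.35 and 9.67 and KO means of 9.23, 10.53 and 10.56. Of the 3, only Btg1 was called, with a limma adjusted p of 0.0461. Distances without WT 1 were not computed.

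Sgpp2, the second sphingosine-1-phosphate phosphatase, had 1 probe set and read close to the Y-linked readings without target. It read 3.77, 3.64, 4.15, 4.11 and 3.78 on WT 1 to WT 5 and 3.74, 4.09, 3.71, 4.02 and 3.79 on KO 8, 9, 10, 21 and 23. On 6 of these 10 arrays it read no higher than 3.84, the highest Y-linked reading without target, and its own highest reading was 4.15. The difference was -0.02 (SE 0.15, 95% interval -0.33 to 0.30, limma adjusted p = 0.984), or 0.793-fold to 1.23-fold, on a scale that compresses differences of dim probe sets.

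**Figure D2:**
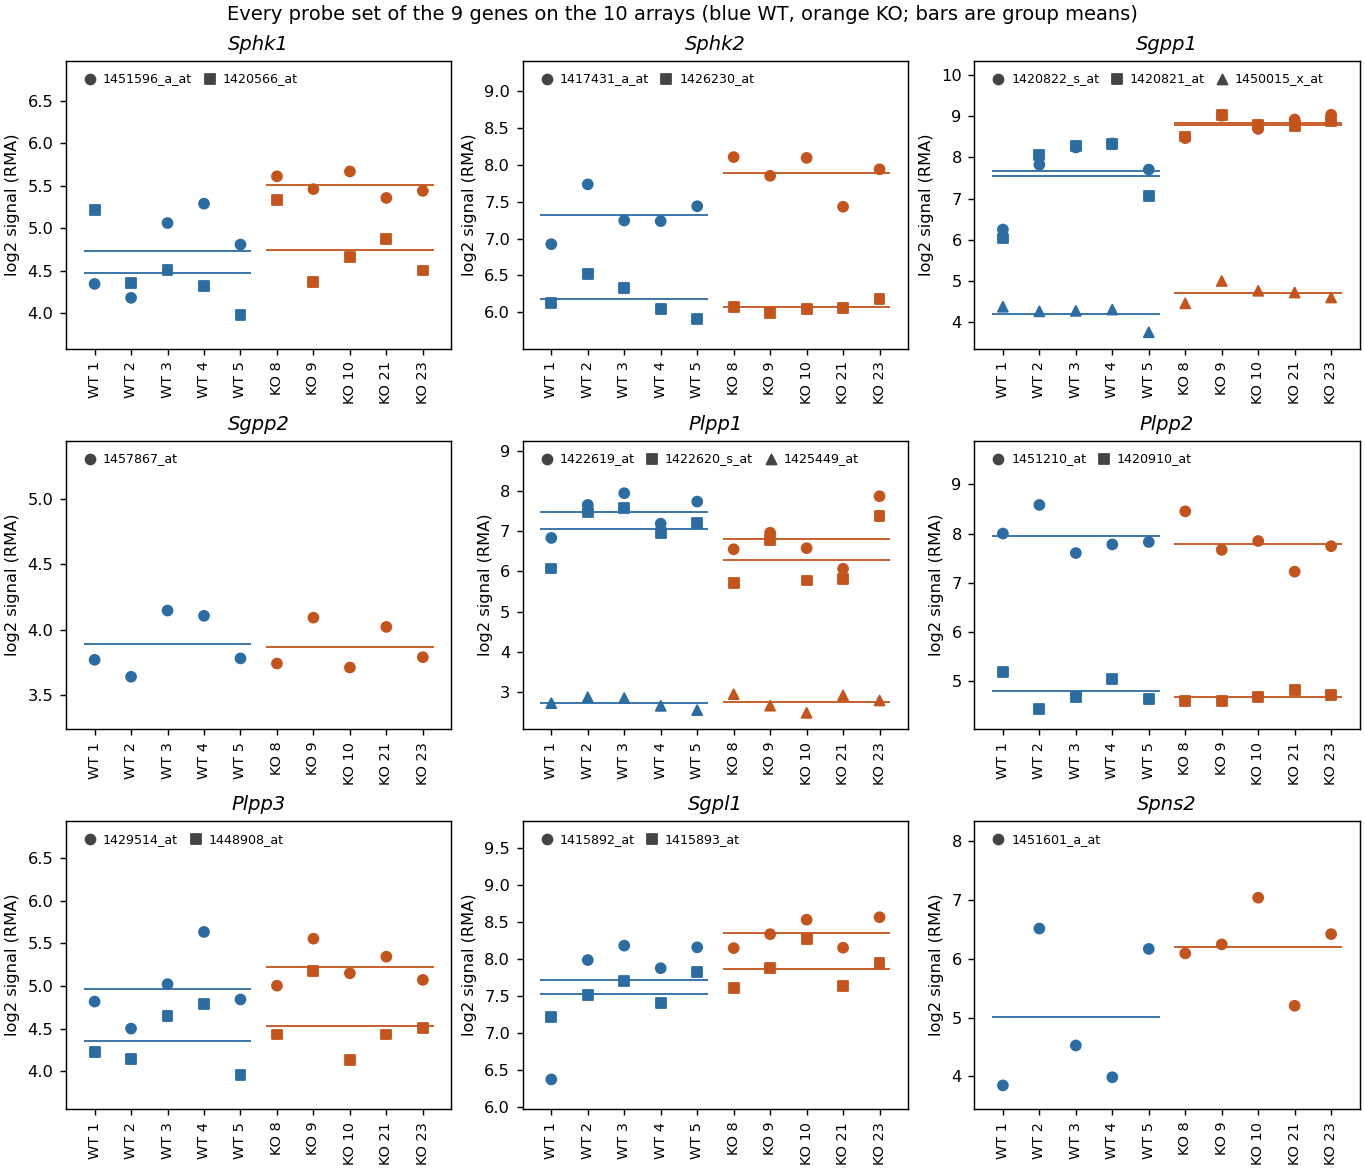
Log2 signal (y axis) of every probe set of the 9 genes on each of the 10 arrays (x axis), 1 panel per gene; point shapes are probe sets, blue is WT, orange is KO and bars are group means of 5 arrays. The 3 Sgpp1 sets separate the groups, Spns2 falls to 3.85 on WT 1, 4.52 on WT 3 and 3.99 on WT 4, and Plpp1 is low on KO 8, KO 10 and KO 21.

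The lipid phosphate phosphatases act on sphingosine-1-phosphate, lysophosphatidate and other phospholipids at the cell surface and in internal membranes, and are less selective than the Sgpp enzymes. Plpp1 was the member with the most negative difference. Its brightest set (1422619_at) read 6.84, 7.66, 7.95, 7.19 and 7.75 on WT 1 to WT 5 and 6.55, 6.97, 6.58, 6.07 and 7.88 on KO 8, 9, 10, 21 and 23. KO 8, 9, 10 and 21 lay below WT 2 to WT 5, but KO 23 read as high as the upper WT arrays and WT 1 read among the KO values. A second set (1422620_s_at) gave a like pattern, with 7.39 on KO 23 and 6.08 on WT 1 against 5.71, 5.78 and 5.81 on KO 8, KO 10 and KO 21.

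The Plpp1 means were 7.48 ± 0.45 and 6.81 ± 0.68, a difference of -0.67 (SE 0.31, 95% interval -1.34 to 0.00215, limma adjusted p = 0.388), and the second set differed by -0.77. The difference was -0.94 without KO 23 and -0.83 without WT 1, and neither passed. The KO SD of 0.68 rested in large part on KO 23, without which it was 0.37. The third Plpp1 set (1425449_at) read 2.47 to 2.94 on all 10 arrays, inside the range of Y-linked sets without target, and carries no information on the difference.

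Plpp2 and Plpp3 overlapped between the groups on each of their sets. Plpp2 (1451210_at) read 8.00, 8.58, 7.60, 7.78 and 7.83 in WT and 8.45, 7.67, 7.85, 7.22 and 7.74 in KO, with the highest values on WT 2 and KO 8. Its difference was -0.17 (95% interval -0.68 to 0.33, limma adjusted p = 0.869), and its other set, 1420910_at, differed by -0.11. Without single arrays the Plpp2 difference ran from -0.34 (without KO 8) to -0.015 (without WT 2), and it was -0.031 without KO 21. Plpp3 (1429514_at) read 4.82, 4.50, 5.02, 5.64 and 4.84 in WT and 5.004, 5.56, 5.15, 5.34 and 5.07 in KO, a difference of 0.26 (95% interval -0.17 to 0.69, limma adjusted p = 0.687). Without single arrays it ran from 0.15 (without WT 2) to 0.43 (without WT 4). WT 4 and KO 9 were the 2 highest arrays on that set and on the other, where they read 4.79 and 5.17. Fibroblast markers varied strongly between arrays, with list means of 6.12, 6.49, 9.26, 8.97 and 6.41 on WT 1 to WT 5 and 6.19, 7.45, 6.80, 6.85 and 8.12 on KO 8, 9, 10, 21 and 23. The highest WT means were on WT 3, where the 2 Plpp3 sets read 5.02 and 4.64, and on WT 4, where they read 5.64 and 4.79. The highest KO mean was on KO 23, where they read 5.07 and 4.51. KO 9, with the next highest KO mean, read 5.56 and 5.17. The part of these cells in the Plpp3 values was not tested.

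Sgpl1, the lyase that breaks sphingosine-1-phosphate down irreversibly, read 6.37 on WT 1 and 7.98, 8.18, 7.87 and 8.16 on WT 2 to WT 5, and 8.15, 8.33, 8.53, 8.15 and 8.56 on KO 8, 9, 10, 21 and 23 (1415892_at). WT 1 stood far below the other 9 arrays, and apart from it the groups overlapped narrowly, with WT 3 at 8.18 above KO 8 and KO 21. The difference was 0.63 (SE 0.30, 95% interval -0.02 to 1.28, limma adjusted p = 0.406), and it was 0.30 without WT 1 (adjusted p = 0.337, over 20 alternatives 0.173 to 0.894). The other set (1415893_at) read 7.21, 7.51, 7.70, 7.40 and 7.82 in WT and 7.61, 7.88, 8.27, 7.64 and 7.95 in KO, a difference of 0.34. There WT 1 was again the lowest but close to its group.

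Spns2, the transporter that carries sphingosine-1-phosphate out of cells, had the largest difference of the 9 by brightest probe set over all 10 arrays, although another Sgpp1 set differed by 1.24, and the widest spread in WT. It read 3.85, 6.51, 4.52, 3.99 and 6.17 on WT 1 to WT 5 and 6.09, 6.24, 7.04, 5.20 and 6.42 on KO 8, 9, 10, 21 and 23 (1451601_a_at, its only set). WT 2 and WT 5 read among the KO arrays, whereas WT 1, WT 3 and WT 4 read below every KO array, and WT 1 was next to the highest Y-linked reading without target. The means were 5.01 ± 1.25 and 6.20 ± 0.66, a difference of 1.19 (SE 0.52, 95% interval 0.07 to 2.31), or 2.28-fold, with a limma adjusted p of 0.341. Without WT 1 it was 0.90 (limma adjusted p = 0.460). The WT SD exceeded that of 99.0% of all genes and was 1.06 to 1.41 without single arrays, whereas the KO SD was 0.42 without KO 21.

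Beside these values, the mean of the differentiated keratinocyte list was 8.71, 8.98, 9.49, 8.65 and 8.97 on WT 1 to WT 5 and 10.58, 11.09, 10.84, 10.91 and 10.64 on KO 8, 9, 10, 21 and 23, with no overlap between the groups. The part of differentiation in the KO values of Spns2, or in those of the other members, was not tested. With the array number in the labels as a covariate, which runs from 1 to 5 in WT and from 6 to 10 in KO, the sign turned for Spns2 (-0.21), Sgpl1 (-0.37) and Plpp3 (-0.06), while Sgpp1 was 0.42, Sphk1 0.10 and Sphk2 0.13. In that limma fit 0 of all 18193 genes were called in either direction, so it gives no call on any member.

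**Figure D3:**
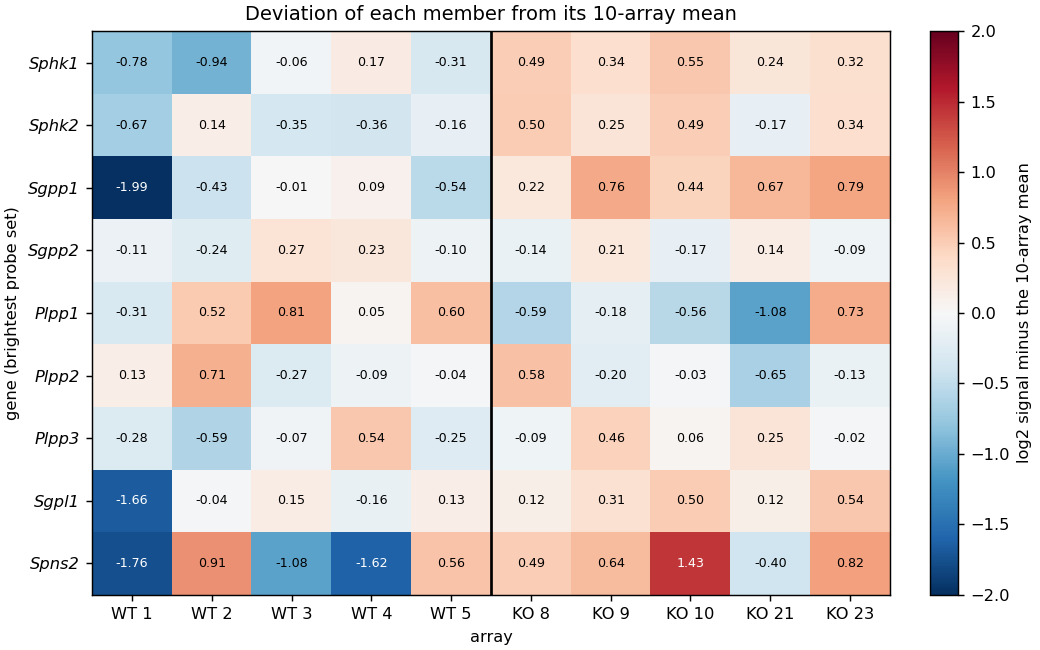
Log2 signal minus the 10-array mean (colour and printed value) for the brightest probe set of each gene (rows) on each array (columns, WT left of the line and KO right of it). WT 1 is lowest for Sgpp1 (-1.99), Sgpl1 (-1.66) and Spns2 (-1.76), and Plpp1 is lowest on KO 21 (-1.08).

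Read by array, WT 1 was the lowest WT array on 8 of the 18 sets and on the brightest set of 5 of the 9 genes (Sphk2, Sgpp1, Plpp1, Sgpl1 and Spns2). Sphk1, Sgpp2, Plpp2 and Plpp3 had their lowest WT reading elsewhere. Among KO arrays, KO 21 was the lowest on the brightest set of 5 of the 9 genes too (Sphk1, Sphk2, Plpp1, Plpp2 and Spns2), and for Plpp1 and Plpp2 it was the lowest of all 10 arrays. How often WT 1 and KO 21 were lowest over all genes was not counted, so these counts do not set the members apart from other genes.

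Other genes of the pathway were read from lists. Of the 5 sphingosine-1-phosphate receptors, through which the exported lipid acts, 0 were called, and S1pr4 had the smallest limma adjusted p, 0.0896, with 4.53 ± 0.20 in WT and 5.12 ± 0.28 in KO. Their median difference was 0.37. Of 8 measured partners (other lipid transporters, the carrier Apom, the kinase-binding protein Cib1 and aldehyde dehydrogenases), 1 was called higher and 0 lower, with a median of 0.31. The 1 was Aldh3b2, encoding a fatty aldehyde dehydrogenase, at 7.16 ± 0.56 and 8.69 ± 0.29, a 2.89-fold difference with a limma adjusted p of 0.00446. Aldh3a2, the dehydrogenase known for oxidising the aldehyde that the lyase releases, read 7.24 ± 0.36 and 7.18 ± 0.20 and was not called (chosen after its values were seen).

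Of 9 further lipid phosphate phosphatase relatives (Plpp4 to Plpp7 and the Plppr genes), 0 were called and the median difference was 0.10, with the smallest limma adjusted p at 0.573 for Plpp6. Of 6 lysophosphatidate genes, whose lipid the Plpp enzymes also hydrolyse, 0 were called, with a median of -0.15 and the smallest adjusted p at 0.659 for Lpar3. Of all genes, 2.30% were called higher and 0.346% lower, and the 0 of 9 members is near these shares. Of 29 ceramide and sphingolipid enzymes, 7 were called higher and 0 lower, with a median of 0.39. Those with the smallest limma adjusted p were Acer1, an alkaline ceramidase that releases sphingosine (0.000346), Sptlc3, a subunit of the first enzyme of sphingolipid synthesis (0.000642), and Ugcg, the glucosylceramide synthase (0.000782). Genes under 0.05 in unadjusted limma tests were counted as well, in either direction. They numbered 1 of 5 receptors, 2 of 8 partners, 0 of 9 relatives, 0 of 6 lysophosphatidate genes and 15 of 29 ceramide enzymes. The share of all genes under this threshold was 13.0% in either direction and 7.33% higher in KO. The 15 were not all higher: the ceramide synthase Cers2 read 7.44 ± 0.53 in WT and 6.64 ± 0.54 in KO (named after its values were seen).

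**Figure D4:**
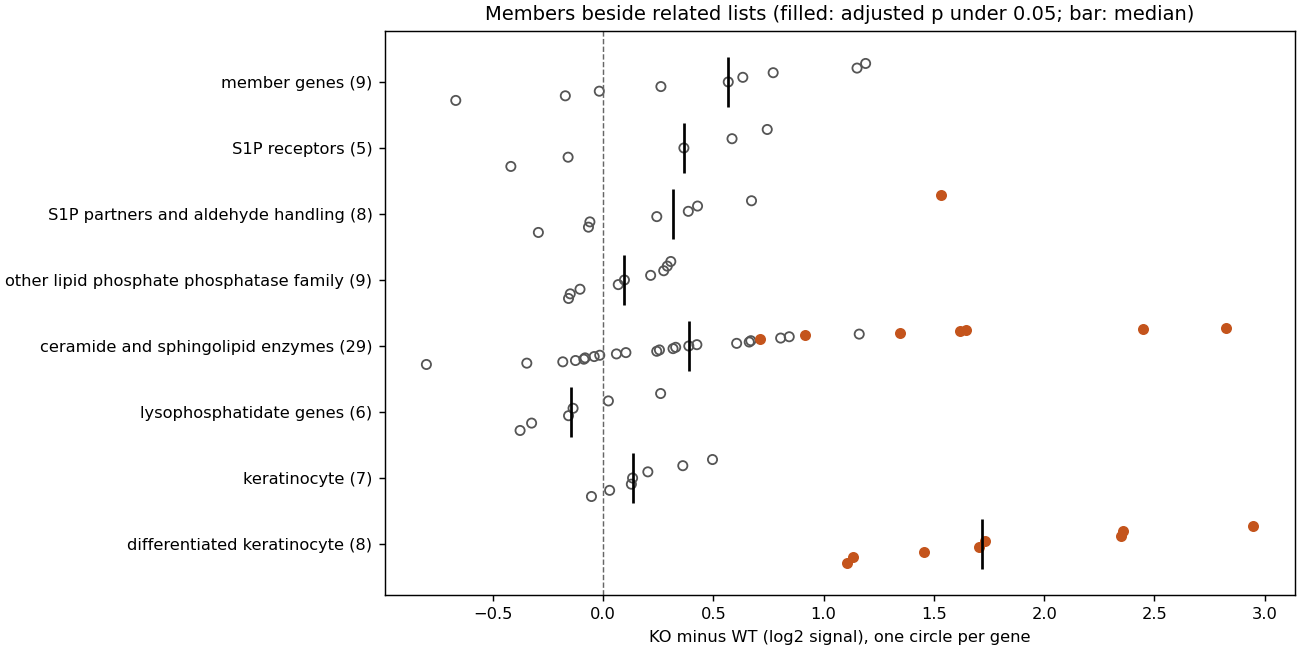
KO minus WT on the log2 scale (x axis) for each gene, shown by its brightest probe set, of the 9 members and of 7 lists (rows, with the number of genes measured); filled circles have a limma adjusted p under 0.05 and bars are list medians. No member is filled, 7 of 29 ceramide enzymes are, and all 8 differentiated keratinocyte markers are, beside 2.65% of all genes called.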

How the data were processed

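Total RNA was extracted with Trizol from 10 keratinocyte samples, and 6 µg of each went into the array labelling, per the labels' protocols. The authors deposited log2 values from RMA, which equalises arrays and compresses differences near background, per the submitters' processing notes; its version is not given in the sources used here. Every sample column was used unchanged (0 omitted), and having only 5 arrays a group sets the precision.

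Of 45101 probe sets, 64 are controls, 34945 have 1 gene, 932 several and 9160 none. A gene was read from its brightest probe set by 10-array mean (18193 genes), and 34741 probe sets were matched by gene identifier to symbols of the RefSeq table (GRCm38.p6). KO minus WT was tested, two-sided, with limma 3.58.1 in R 4.3.3, adjusted by Benjamini-Hochberg over the 18193 genes at 0.05. Further probe sets were tested in a fit over all 45037 sets that are not controls, and the script was tested on simulated data. Alternatives were other normalisations, another choice of probe set, a filter at a mean of 5, array weights, covariates and leaving out arrays.

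Named were all 9 members, up to 3 called genes of each other list or else the one with the smallest adjusted p, the 3 profiles nearest to Sgpp1, and the brightest marker of each other cell type. Genes outside this rule (Aldh3a2, Cers2, Emcn, Lum, Cd3e, Cd3g, Cpa3, Mcpt4, Cma1, Ptprc, Cd207, Tyrobp, Csf1r and Cd74) were named after their values were seen. The members and lists were chosen with earlier results of these data known.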

Additional observations from a re-analysis of the deposited data

Results flagged for a closer look

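Among the 36 groups of 5 arrays formed by the 18 probe sets, 2 held an array whose gap to its neighbour exceeded Dixon's critical value of 0.71 times the group's range; chance flags about 1 in 20 groups, or 1.8 of 36. On Sgpl1 (1415892_at) WT 1 read 6.37, with the next WT array at 7.87 and a gap of 0.831 of the range. On the dimmest Sgpp1 set (1450015_x_at) WT 5 read 3.76, with the next at 4.27 and a gap of 0.819.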

How the results depend on the processing

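The count of members called higher was 0, and it was 2 with array weights and 0 to 1 when each array was left out in turn; 0 were called lower under every alternative run. Array weights raised the calls over all genes as well, from 419 to 877 higher and from 63 to 561 lower; without WT 1 and without WT 4, where 1 member was called, 419 and 285 genes were called higher. Of the 18 probe sets 0 were called, 2 with array weights, where calls over all probe sets went from 572 to 1896, and 0 when single arrays were left out. The Sgpp1 difference was 0.77 with array weights, past the threshold, and 0.80 to 1.32 when single arrays were left out. With the array number as a covariate the sign turned for Plpp3 (-0.058), Sgpl1 (-0.37) and Spns2 (-0.21); that covariate runs with the groups. Sgpp2 was 0.0062 after renewed quantile normalisation and ran from -0.080 to 0.047 over single arrays left out. Of 179 recomputed gene differences, 166 kept their direction and side of the threshold, 4 passed it and 9 changed sign; the causes were not tested. The covariate for Y-linked signal was added after seeing the data. Sgpp2 has no value under the filter at a mean of 5. Signals near the Y-linked readings without target limit Sgpp2, the low Spns2 arrays, the dimmest Sgpp1 set and the third Plpp1 set. No paired analysis was possible because the groups share no replicate number.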
